A study of Mus musculus with 82 samples.

Results

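The Hox genes of the mouse encode homeodomain transcription factors and lie in 4 clusters, HoxA on chromosome 6, HoxB on chromosome 11, HoxC on chromosome 15 and HoxD on chromosome 2. The 38 genes described here were taken by name from all 4 clusters, out of 21887 coding genes in the RefSeq table of the build GRCm38.p6. Peaks were counted inside each cluster span, from the outermost base of its first listed gene to that of its last, and within 500 kb on either side. Each peak was counted once, by its midpoint.

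Within a cluster the genes carry paralogue numbers from 1 to 13, and all are transcribed in the same direction, from the high-numbered 5' end towards the low-numbered 3' end. In the embryo, genes at the 3' end are switched on earlier and further forward than those at the 5' end, which is known as collinearity. Enhancers lie both between the genes and in long stretches with few genes on either side, best known at HoxD. Eomes, and Brachyury with the gene symbol T, belong to the T-box family and act in the primitive streak, where Hox transcription begins in the embryo.

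The series holds 82 samples, and 6 ChIP-seq libraries stand behind the 4 peak lists used here. All came from A2lox.Cre mouse embryonic stem cells with both Eomes and Brachyury knocked out (dKO), grown as embryoid bodies to day 5 with activin A at 30 ng/ml and with a construct induced by doxycycline. For the GFP-tagged forms of Eomes (EoGFP) and Brachyury (BraGFP), chromatin was pulled down with an anti-GFP antibody, from 2 libraries each that were deposited as 1 list each. For V5-tagged Eomes (EoV5) and for a fusion of Eomes with the activator domain of VP16 (EoVP16), an anti-V5 antibody was used, on 1 library each. Every group therefore lacked the endogenous factors and carried an induced transgene, and the factors were not measured at their normal level. The files hold positions of binding and no expression, so neither the identity of the cells nor transcription of the Hox genes could be checked.

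The 4 lists held 27588 to 38193 peaks, or 10.1 to 14.0 peaks per Mb of the assembled chromosomes. The authors' minimum pileup, the height of a peak in fragments, was 120 fragments in EoGFP and 40 in BraGFP, and it was 60 in EoV5 and 36 in EoVP16. A missing peak therefore means only that no peak passed that list's own minimum, and depth, antibody and minimum cannot be told apart from the construct. Pileup was deposited for EoV5 and EoVP16, while EoGFP and BraGFP peaks have a width only. With 1 peak set per construct there is no replicate spread and no test between conditions. Intervals below are 95% intervals (exact Poisson for counts and pileups, Wilson for shares) and cover counting error only.

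Inside the 4 spans, 0.485 Mb in all, BraGFP and EoVP16 peaks were denser than in the genome, and EoGFP and EoV5 peaks were near their genome density. The spans held 17 BraGFP peaks, or 35.0 per Mb (20.4 to 56.1), against 10.1 per Mb over the genome, a ratio of 3.46 (2.01 to 5.53). They held 15 EoVP16 peaks, or 30.9 per Mb (17.3 to 51.0), 2.32 times the genome value (1.30 to 3.83). For EoGFP there were 6 peaks and a ratio of 1.12 (0.410 to 2.43), and for EoV5 there were 8 peaks and a ratio of 1.17 (0.507 to 2.31). The intervals of the last ratios include 1.

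**Figure D1:**
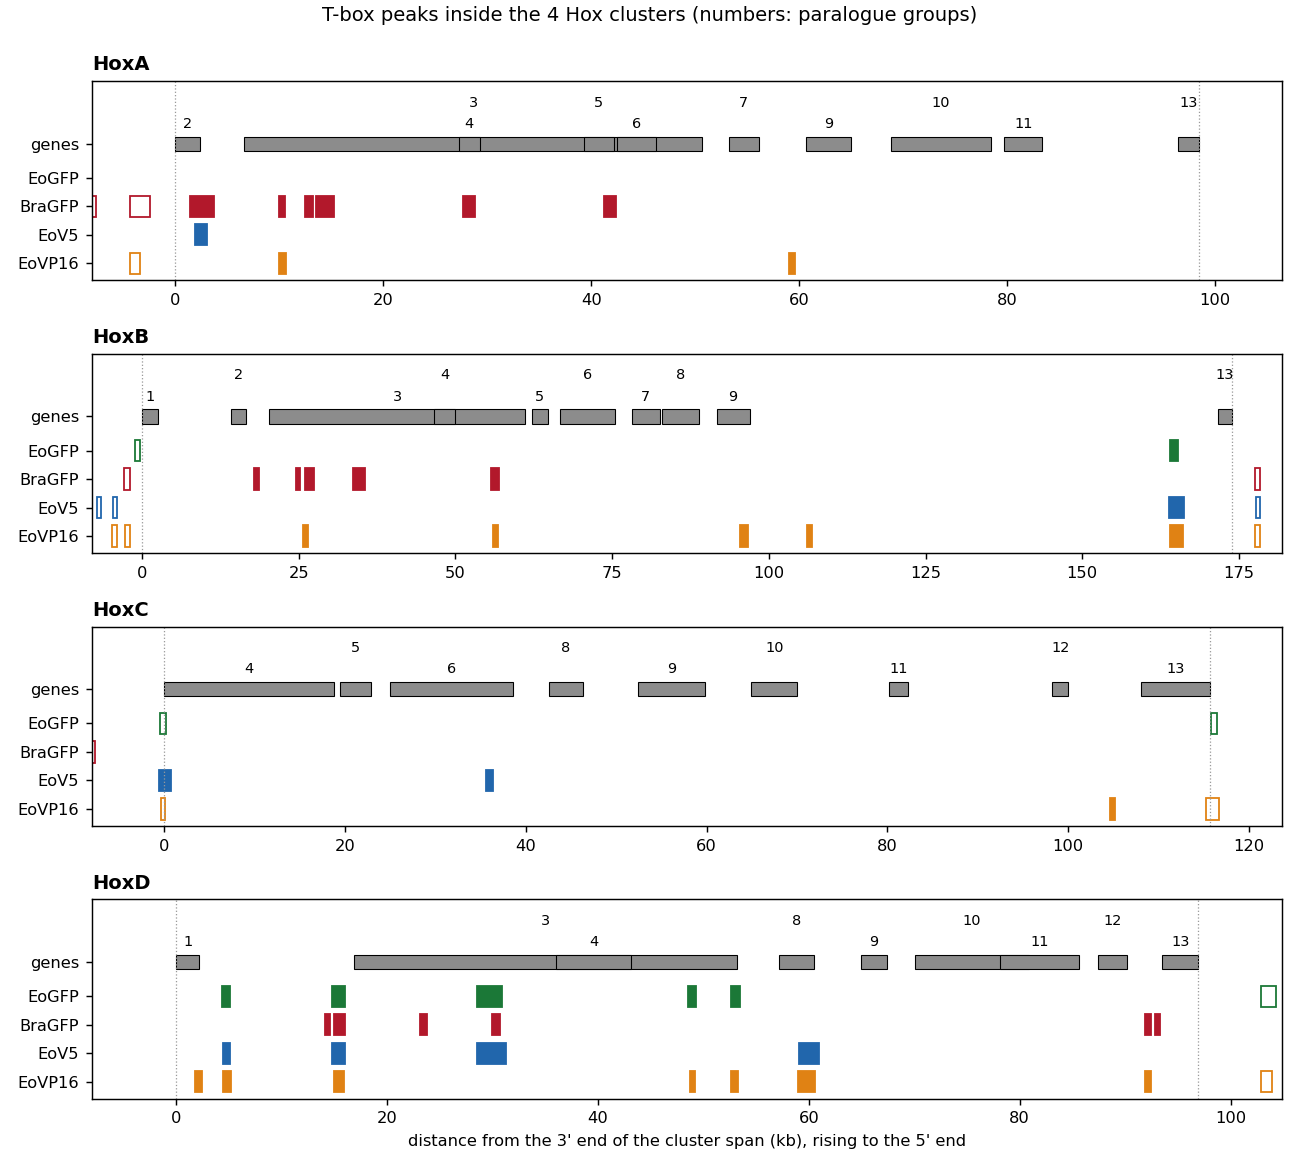
Peaks of the 4 lists inside each Hox cluster, drawn at their width against the distance in kb from the 3' end of the span. Filled boxes have their midpoint in the span, open boxes outside it, grey boxes are the genes with their paralogue numbers, and the 6 BraGFP peaks of HoxA lie between Hoxa2 and Hoxa5.

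The clusters differed in which constructs were found. In HoxA (chr6:52162417-52260880) there were 0 EoGFP, 6 BraGFP, 1 EoV5 and 2 EoVP16 peaks. HoxB (chr11:96194316-96368254) held 1 EoGFP, 5 BraGFP, 1 EoV5 and 5 EoVP16 peaks. In HoxC (chr15:102921131-103036856) there were 0 EoGFP, 0 BraGFP, 2 EoV5 and 1 EoVP16 peaks by midpoint. HoxD (chr2:74668225-74765142) held 5 EoGFP, 6 BraGFP, 4 EoV5 and 7 EoVP16 peaks. HoxD was thus the cluster with most peaks in every list except BraGFP, in which HoxA held as many, and HoxC held the fewest overall. Against windows of the same length with 5 or more coding genes, the picture differed from that against the whole genome. Such windows held a median of 3 EoGFP, 2 BraGFP, 3 EoV5 and 4 EoVP16 peaks at the lengths of HoxA and HoxD, of 5, 3, 4 and 6 at that of HoxB, and of 4, 2, 3 and 5 at that of HoxC. Each Eomes list was thus below the median in HoxA, HoxB and HoxC and above it in HoxD. BraGFP was above it in HoxA, HoxB and HoxD and below it in HoxC.

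Binding was unevenly placed along the clusters. Each peak in a span was given to the nearest listed gene, and ties went to the lower paralogue number. Of the 17 BraGFP peaks, 15 lay nearest to paralogues 1 to 4, 0 to paralogues 5 to 8 and 2 to paralogues 9 to 13. Per length of territory this was 79.9 BraGFP peaks per Mb (44.7 to 132) at paralogues 1 to 4. At paralogues 9 to 13 it was 8.92 per Mb (1.08 to 32.2), and the intervals do not overlap. The latter territory, 224 kb, includes the long stretch between Hoxb9 and Hoxb13, which held no BraGFP peak. The density without that stretch would be higher, and its interval was not computed. The EoGFP counts were 5, 0 and 1, and the EoV5 counts were 5, 2 and 1. The EoVP16 counts were 8, 1 and 6, with 42.6 peaks per Mb (18.4 to 83.9) at paralogues 1 to 4 and 26.8 (9.82 to 58.2) at paralogues 9 to 13. For each Eomes list the intervals of the 2 outer paralogue groups overlap. The group of paralogues 5 to 8 has only 72.9 kb of territory, so a count of 0 there allows up to 50.6 peaks per Mb. The RefSeq spans of Hoxa3, Hoxb3 and Hoxd3 run over neighbouring genes. When peaks went to the nearest gene start instead, the BraGFP counts were 14, 1 and 2.

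**Figure D2:**
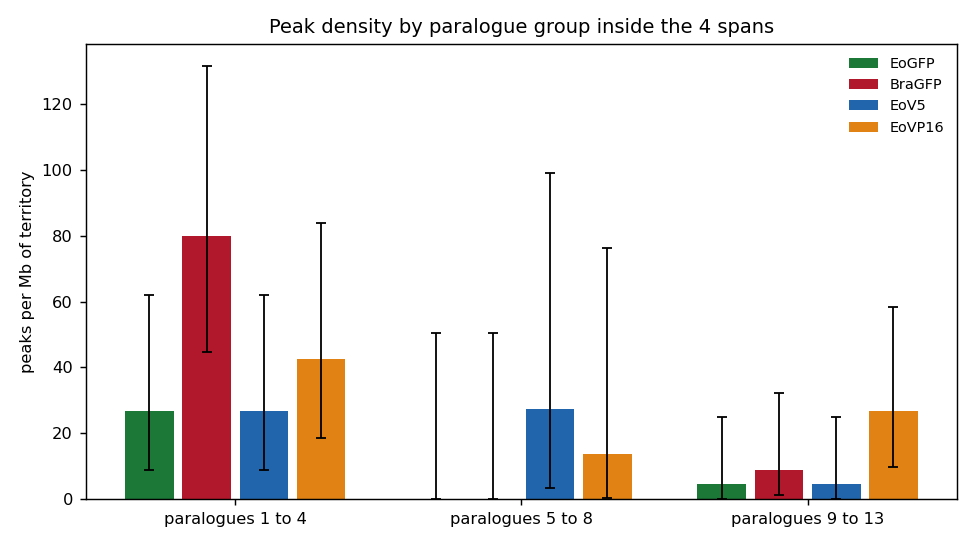
Peaks per Mb of territory for paralogues 1 to 4, 5 to 8 and 9 to 13 inside the 4 spans, with exact 95% Poisson intervals as bars. BraGFP stands at 79.9 per Mb at paralogues 1 to 4 and at 8.92 at paralogues 9 to 13.

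The start sites of the Hox genes with a promoter entry carried few peaks. RefSeq promoter entries, covering 250 bases before to 50 bases after a start, were found for 22 of the 38 genes and gave 24 windows. From HoxB only Hoxb1, Hoxb4 and Hoxb8 had an entry, and from HoxC only Hoxc4, so most windows lie in HoxA and HoxD. EoGFP peaks overlapped 1 of the 24 windows, BraGFP and EoV5 peaks 2 each, and EoVP16 peaks 3. No interval was computed for these counts. Over all coding genes with an entry, 40% of windows were overlapped by EoGFP, 20.7% by BraGFP, 31.1% by EoV5 and 50.8% by EoVP16. A peak of any list lay on 5 of the 24 Hox windows, against 53.7% of all coding windows. They were those of Hoxa2, Hoxa5, Hoxd1, Hoxd3 and Hoxd8. Their 250 bases upstream are given because they are the starts with a peak among the genes with an entry, together with that of Hoxd9, which had no peak over it. Hoxc13, whose start lay under an EoVP16 peak, has no entry. Sequences are from RefSeq (GRCm38.p6) and run 5' to 3' towards the gene. Capitals mark the motif AGGTGTGA, a T-box core.
Hoxa2 promoter, chr6:52164832-52165081, minus strand: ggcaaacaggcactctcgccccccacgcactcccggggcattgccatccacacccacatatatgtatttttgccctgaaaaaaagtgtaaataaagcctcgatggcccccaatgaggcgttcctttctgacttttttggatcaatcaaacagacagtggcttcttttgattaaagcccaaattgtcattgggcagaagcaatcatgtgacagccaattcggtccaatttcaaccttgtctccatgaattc
Hoxa5 promoter, chr6:52204588-52204837, minus strand: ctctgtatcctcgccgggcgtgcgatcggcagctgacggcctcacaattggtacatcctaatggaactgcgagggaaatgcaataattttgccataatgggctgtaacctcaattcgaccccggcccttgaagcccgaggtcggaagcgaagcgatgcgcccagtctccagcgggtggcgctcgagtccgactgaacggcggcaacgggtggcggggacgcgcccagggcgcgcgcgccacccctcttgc
Hoxd1 promoter, chr2:74762730-74762979, plus strand: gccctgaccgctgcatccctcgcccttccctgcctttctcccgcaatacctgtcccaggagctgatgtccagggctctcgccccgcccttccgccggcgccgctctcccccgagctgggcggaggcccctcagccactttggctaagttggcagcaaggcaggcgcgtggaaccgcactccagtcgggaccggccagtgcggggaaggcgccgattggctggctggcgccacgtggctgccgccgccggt
Hoxd3 promoter, chr2:74711743-74711992, plus strand: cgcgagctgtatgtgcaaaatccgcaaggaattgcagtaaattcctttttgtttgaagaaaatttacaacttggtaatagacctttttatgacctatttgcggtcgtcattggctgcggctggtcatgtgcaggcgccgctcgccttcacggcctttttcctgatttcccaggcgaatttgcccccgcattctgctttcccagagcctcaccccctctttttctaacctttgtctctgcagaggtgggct
Hoxd8 promoter, chr2:74704365-74704614, plus strand: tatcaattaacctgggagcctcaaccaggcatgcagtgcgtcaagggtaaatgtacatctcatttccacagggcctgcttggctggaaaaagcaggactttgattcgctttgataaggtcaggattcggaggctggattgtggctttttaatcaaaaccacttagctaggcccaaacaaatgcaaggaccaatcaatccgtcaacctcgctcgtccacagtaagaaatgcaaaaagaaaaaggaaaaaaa
Hoxd9 promoter, chr2:74697513-74697762, plus strand: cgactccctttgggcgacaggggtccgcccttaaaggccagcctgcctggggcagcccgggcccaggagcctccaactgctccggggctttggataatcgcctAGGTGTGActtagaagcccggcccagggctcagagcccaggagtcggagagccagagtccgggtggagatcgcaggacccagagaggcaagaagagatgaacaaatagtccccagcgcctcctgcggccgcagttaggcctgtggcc

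The motif AGGTGTGA and the shorter GTGTGA that lies inside it were searched on both strands of these 250 bases. Among the 24 Hox windows, AGGTGTGA was found in 1, that of Hoxd9, and it was found in 0.997% of all coding windows. GTGTGA was found in the same 1 of 24 Hox windows and in 11.1% of all windows. None of the 5 windows with a peak held either motif, which says only that these letters are not in this window, since the peaks are wider than it. The 5 sequences with a peak also differ in composition. GC content was 44.4% at Hoxd8, 46.4% at Hoxa2 and 49.2% at Hoxd3, and it was 63.6% at Hoxa5 and 71.6% at Hoxd1. Hoxa5 and Hoxd1 held 28 and 24 CpG dinucleotides, against 6 at Hoxa2, 6 at Hoxd8 and 12 at Hoxd3.

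HoxA was occupied at its 3' end and mostly by BraGFP. Hoxa2 (chr6:52162417-52164831), which sets identity in the hindbrain and the second branchial arch, had its start covered by the widest BraGFP peak of any Hox span (chr6:52163802-52166125, 2324 bp), wider than 99.2% of that list. An EoV5 peak with a pileup of 78 (61.7 to 97.3) lay under it, below the EoV5 median of 99. Hoxa3 (chr6:52169059-52213067), a gene of the hindbrain and pharynx, spans 5 BraGFP peaks. Among them, chr6:52172437-52173018 coincided with an EoVP16 peak of pileup 47, and chr6:52174888-52175674 and chr6:52175975-52177685 had no other list. The remaining ones lay over Hoxa4 (chr6:52189682-52191703; peak chr6:52190069-52191226) and over the start of Hoxa5 (chr6:52201754-52204587; peak chr6:52203677-52204819), whose product is needed in the lung and the cervical skeleton. The latter peak ends 0.039 kb from Hoxa6 (chr6:52204858-52208672). Beyond Hoxa5, from Hoxa6 to Hoxa13, the only peak was 1 of EoVP16 (pileup 44) between Hoxa7 and Hoxa9. No EoGFP peak lay in the span, and the nearest to any listed HoxA gene was 8.70 kb from Hoxa2, in the 3' flank.

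HoxB held BraGFP peaks at its 3' genes and an Eomes site near its 5' end. All 5 BraGFP peaks lay over Hoxb3 (chr11:96307101-96347930), a gene of the posterior hindbrain, or between it and Hoxb2. The widest (chr11:96332714-96334595, 1882 bp) had no other list. EoVP16 coincided with BraGFP at chr11:96311374-96312649 (pileup 39) and at chr11:96340780-96342506 (pileup 53). Neither EoGFP nor EoV5 had a peak between Hoxb1 and Hoxb9. Instead, EoGFP, EoV5 and EoVP16 shared a site at chr11:96201967-96204383, 5357 bp from Hoxb13, with no BraGFP peak. Hoxb13 is the most posterior gene of this cluster and lies far from the rest. There the EoV5 pileup was 338 (303 to 376), taller than 93.4% of its list, and the EoVP16 pileup was 114 (94.0 to 137), taller than 92.9%. These were the tallest EoV5 and EoVP16 peaks in any Hox span. EoVP16 alone had a peak over Hoxb9 (chr11:96271330-96276595; pileup 44) and another 9271 bp from it (pileup 45). Hoxb1 (chr11:96365746-96368254), a gene of the hindbrain, had no peak over it, and an EoGFP peak of the 3' flank lay 0.323 kb away.

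HoxC had no BraGFP peak in its span, and its Eomes peaks lay at the outermost genes and in Hoxc6. The site at the 3' end of Hoxc4 (chr15:103018097-103036856), at chr15:103036126-103037431, held EoGFP, EoV5 with a pileup of 279 (247 to 314) and EoVP16 with a pileup of 46. It crosses the edge of the span, so the EoGFP and EoVP16 midpoints fall in the 3' flank. At the other end, Hoxc13 (chr15:102921131-102928814), a gene of hair and nail, had an EoVP16 peak of pileup 52 over its start. An EoGFP peak lay 0.123 kb from it, and both midpoints fall in the 5' flank. Inside the cluster only an EoV5 peak of pileup 66 in Hoxc6 (chr15:102998226-103011882) and an EoVP16 peak of pileup 40, 2831 bp from Hoxc13, were found. When any overlap of 1 bp placed a peak in a span, the 4 spans together held 7 EoGFP and 17 EoVP16 peaks.

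HoxD was the only cluster with a site of all 4 lists inside the span. The shared site (chr2:74749132-74750374) lies between Hoxd3 and Hoxd1, over the long noncoding RNA gene Haglr, 861 bp from Hoxd3. Its EoV5 pileup was 82, its EoVP16 pileup 41, and both lie below the medians of their lists (99 and 54). Nearer Hoxd1 the 3 Eomes lists shared a site at chr2:74759975-74760805, with pileups of 97 for EoV5 and 80 for EoVP16. Hoxd3 (chr2:74711993-74748271) held the widest EoGFP peak of any Hox span (chr2:74734208-74736667, 2460 bp, wider than 98.3% of its list). BraGFP and EoV5 (pileup 123, 102 to 147) were found there too, and EoVP16 was not. The start of Hoxd3 carried EoGFP and EoVP16 (pileup 37) at chr2:74711681-74712569, and a further site of the same lists lay at chr2:74715877-74716572 (pileup 36). Over the start of Hoxd8 (chr2:74704615-74707933) EoV5 (pileup 62) and EoVP16 (pileup 43) coincided at chr2:74704213-74706128. Hoxd1 (chr2:74762980-74765142) had an EoVP16 peak alone at its start (pileup 42). At the 5' end, between Hoxd13 (chr2:74668225-74671603), a gene of digits and genital bud, and Hoxd12, there were 2 BraGFP peaks, 190 and 1101 bp from Hoxd13, the latter with EoVP16 (pileup 37).

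The 29 joined sites of the spans were split by the lists that held them. BraGFP alone held 10 sites (34.5%, 19.9 to 52.7), against 23.0% of all sites in the genome. All 4 lists shared 1 site (3.45%, 0.611 to 17.2), against 8.30%. At least 2 Eomes lists shared 8 sites (27.6%, 14.7 to 45.7), against 43.6%, and 6 of the 8 were in HoxD. EoVP16 alone held 5 sites (17.2%, 7.60 to 34.5), against 13.6%. EoV5 alone held 1 (3.45%, 0.611 to 17.2), against 14.5%, and EoGFP alone 0 (0 to 11.7%), against 2.03%. Of the 17 BraGFP peaks, 2 overlapped EoGFP, 11.8% (3.29 to 34.3) against 29.3% over the whole list. Of the 15 EoVP16 peaks, 4 overlapped EoV5, 26.7% (10.9 to 52.0) against 56.9%. Of all these shares, only that of EoVP16 peaks overlapping EoV5 has an interval that leaves out its genome value.

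Most BraGFP, EoV5 and EoGFP peaks of the spans were wider than their list medians, and EoVP16 peaks were low. Of 17 BraGFP peaks, 12 were wider than the list median of 586 bp and 5 were among the widest 10%. The BraGFP median was 1150.5 bp in HoxA, 1276 bp in HoxB and 583.5 bp in HoxD. Wider than their list medians were also 6 of 8 EoV5 and 4 of 6 EoGFP peaks, but only 4 of 15 EoVP16 peaks. EoVP16 pileups in the spans ran from 36 to 114 with a median of 43, and 2 of 15 were above the list median of 54. EoV5 pileups ran from 62 to 338 with a median of 89.5, and 3 of 8 were above the list median of 99. Most EoVP16 peaks of the spans thus stood close to that list's minimum of 36. A RefSeq promoter window was overlapped by 1 of 6 EoGFP, 2 of 17 BraGFP, 2 of 8 EoV5 and 3 of 15 EoVP16 peaks of the spans. Over the whole lists, 22.8%, 12.6%, 13.6% and 23.8% of peaks overlapped one.

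Counted by gene, fewer Hox genes than coding genes at large had an Eomes peak nearby. A peak midpoint lay within 10 kb of 10 of 38 genes for EoGFP (26.3%, 15.0 to 42), against 65.2% of all coding genes. It did so for 12 genes for EoV5 (31.6%, 19.1 to 47.5), against 62.2%. For BraGFP there were 17 (44.7%, 30.1 to 60.3), against 53%, and for EoVP16 there were 24 (63.2%, 47.3 to 76.6), against 71.1%. Hox genes are short, with a median span of 3722 bp against 17169 bp for all coding genes, so fewer peaks can fall in their windows. Among the 32 Hox genes of at most 10 kb, EoGFP had a peak near 25% (13.3 to 42.1) against 46.7% of coding genes of that length. EoV5 stood at 25% (13.3 to 42.1) against 42.4%, so its interval ends only just below the background. BraGFP stood at 40.6% (25.5 to 57.7) against 32.8%, and EoVP16 at 62.5% (45.3 to 77.1) against 52.3%. The lower shares of the 2 Eomes lists without VP16 were therefore seen against both backgrounds, and the BraGFP and EoVP16 shares passed from below to above the background, with intervals at 10 kb that include it each time. Neighbouring Hox genes share peaks within their windows and are not independent. Within 5 kb, EoGFP had a peak near 6 genes (15.8%, 7.44 to 30.4) against 60.4% of coding genes, and EoV5 near 10 (26.3%, 15.0 to 42) against 55.9%. BraGFP had one near 12 (31.6%, 19.1 to 47.5) against 47.2%, and EoVP16 near 16 (42.1%, 27.9 to 57.8) against 67.3%. Within 50 kb, EoGFP was near 26 genes (68.4%, 52.5 to 80.9) against 81.1%, and EoV5 near 27 (71.1%, 55.2 to 83.0) against 83%. BraGFP was near 31 (81.6%, 66.6 to 90.8) against 76.5%, and EoVP16 near 38 (100%, 90.8 to 100) against 84.2%. The EoVP16 share was thus below its background within 5 kb and above it within 50 kb. The intervals leave the background out in both cases, but they treat genes that share peaks as separate. The backgrounds within 5 kb and 50 kb were not matched for gene length, which at 10 kb moved EoVP16 from below to above.

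**Figure D3:**
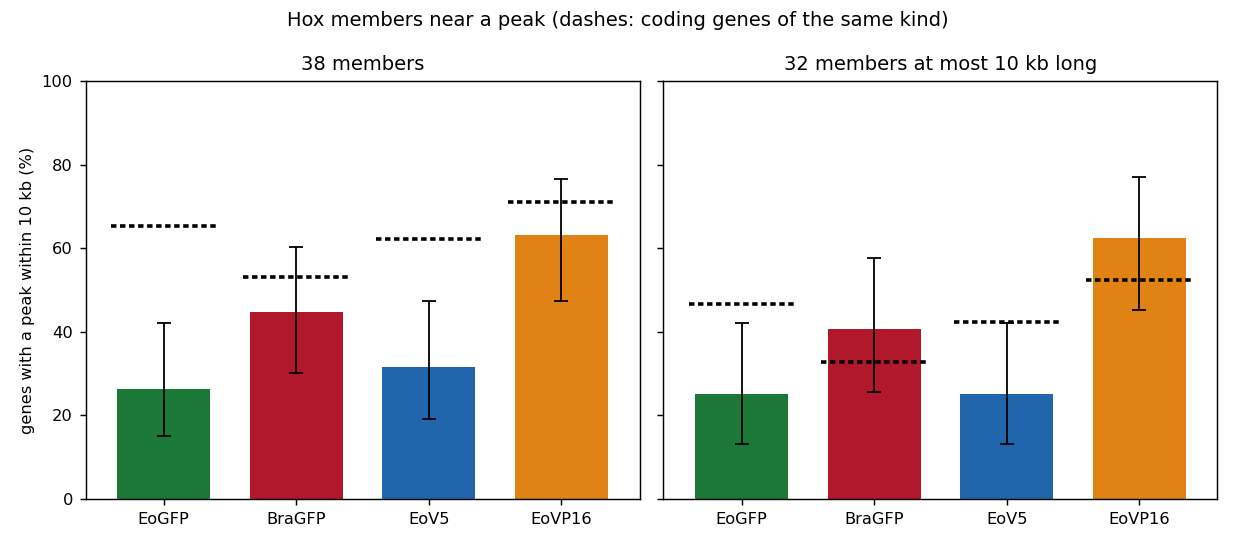
Share of Hox genes with a peak midpoint within 10 kb, for all 38 genes and for the 32 of at most 10 kb, with Wilson 95% intervals. Dashes give the share over all coding genes (left) or coding genes of at most 10 kb (right), and EoGFP lies below them in both panels, at 26.3% against 65.2% and at 25% against 46.7%.

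By position, 10 of the 11 genes of paralogues 1 to 4 had a BraGFP peak within 10 kb, as did 3 of 11 of paralogues 5 to 8 and 4 of 16 of paralogues 9 to 13. EoGFP was near 6, 1 and 3 genes of these groups, EoV5 near 7, 3 and 2, and EoVP16 near 10, 4 and 10. All 4 lists lay within 10 kb of 6 genes, namely Hoxa2, Hoxb1, Hoxb13, Hoxc4, Hoxd3 and Hoxd4. Hoxa3, Hoxd1, Hoxd8 and Hoxd13 had 3. The 8 genes with 2 were Hoxb2, Hoxb3, Hoxb4, Hoxb5, Hoxc13, Hoxd9, Hoxd11 and Hoxd12. The 11 with 1 were Hoxa4, Hoxa5, Hoxa6, Hoxa7, Hoxa9, Hoxa10, Hoxb8, Hoxb9, Hoxc6, Hoxc8 and Hoxc12. No list lay within 10 kb of the remaining 9, which were Hoxa11, Hoxa13, Hoxb6, Hoxb7, Hoxc5, Hoxc9, Hoxc10, Hoxc11 and Hoxd10. Hoxb6 and Hoxd10 were close to the limit, since peak edges lay 9.81 and 9.11 kb away with midpoints beyond 10 kb. Among the genes with none, 6 belong to paralogues 9 to 13, a group with 16 of the 38 genes. How all coding genes divide by the number of lists within 10 kb was not computed, so these counts have no background.

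The clusters also hold the miRNA genes of the miR-10 and miR-196 families. No peak overlapped any of them. Mir10b in HoxD had peaks of all 4 lists at 7.75 to 9.68 kb, and Mir10a in HoxB had BraGFP at 4.52 kb and EoVP16 at 4.96 kb. Mir196a-1 had EoVP16 at 3.11 kb and Mir196b at 8.02 kb. Mature RefSeq sequences of the 5' arms are given with the seed (bases 2 to 8) in capitals, to show the seeds shared across clusters: ACCCUGU in the miR-10 arms and AGGUAGU in the miR-196 arms.
mmu-miR-10a-5p: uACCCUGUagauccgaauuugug
mmu-miR-10b-5p: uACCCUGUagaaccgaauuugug
mmu-miR-196a-5p: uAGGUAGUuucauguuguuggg
mmu-miR-196b-5p: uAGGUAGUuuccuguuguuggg

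Pooled over the 4 clusters, the flanks were denser in peaks than the genome. This did not hold for each flank, since ratios ran from 0.142 to 0.751 in the HoxD flanks and from 0.722 to 1.14 in the HoxA 5' flank. The 3' flanks, 2 Mb in all, held 39 EoGFP, 41 BraGFP, 47 EoV5 and 53 EoVP16 peaks. That is 1.76 (1.25 to 2.41), 2.02 (1.45 to 2.74), 1.67 (1.23 to 2.23) and 1.99 (1.49 to 2.60) times the genome density. The 5' flanks held 33, 30, 42 and 42 peaks, with ratios of 1.49 (1.03 to 2.09), 1.48 (0.998 to 2.11), 1.5 (1.08 to 2.02) and 1.58 (1.14 to 2.13). The intervals of the 2 sides overlap in every list, and that of BraGFP on the 5' side includes 1. Windows of 500 kb with 5 or more coding genes held a median of 9 EoGFP, 8 BraGFP, 11 EoV5 and 11 EoVP16 peaks. The flanks of HoxB and HoxC, which hold 5 or more coding genes each, stood above these medians in every list. The HoxC 5' flank, with 12, 10, 13 and 13, was the nearest to them in BraGFP and EoVP16. In EoV5 the HoxC 3' flank also held 13, and in EoGFP the HoxB 3' flank was nearer, with 11. In EoGFP, BraGFP and EoV5 the counts leaned to the 3' side mostly through HoxA. Its 3' flank held 13, 14, 14 and 10 peaks in the 4 lists, and its 5' flank held 4, 5, 8 and 7. For EoVP16 the larger difference was in HoxC, with 20 peaks in the 3' flank and 13 in the 5' flank. Without HoxC the EoVP16 counts were 33 and 29. Without HoxA the 3' and 5' flanks held 26 and 29 EoGFP, 27 and 25 BraGFP, 33 and 34 EoV5, and 43 and 35 EoVP16 peaks. With flanks of 250 kb, EoVP16 had 25 peaks on the 3' side and 26 on the 5' side. Measured against these flanks instead of the genome, the span ratio was 1.97 for BraGFP (1.15 to 3.16) and 1.30 for EoVP16 (0.729 to 2.15). It was 0.687 for EoGFP (0.252 to 1.5) and 0.741 for EoV5 (0.32 to 1.46). Only the BraGFP interval leaves out 1 against both the genome and the flanks.

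**Figure D4:**
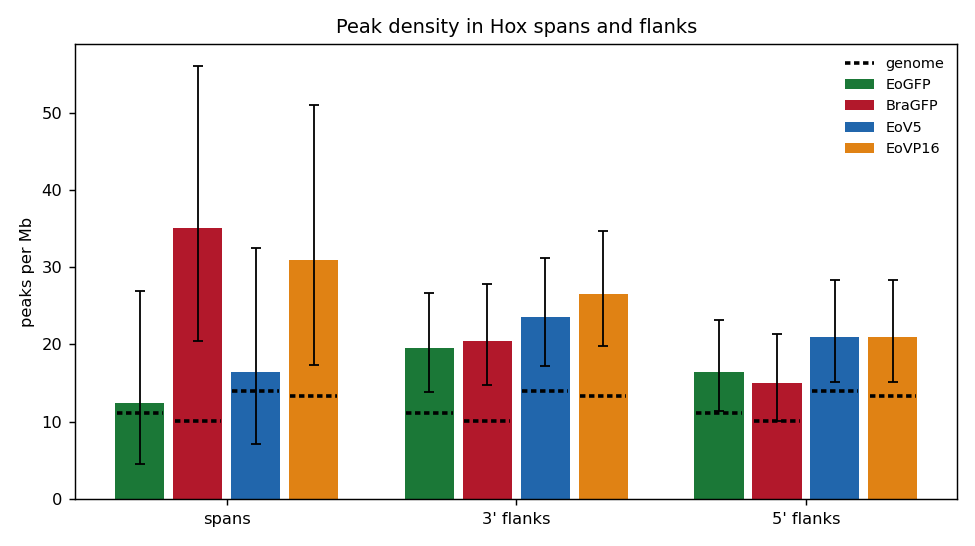
Peaks per Mb in the 4 spans, 3' flanks and 5' flanks, with exact 95% Poisson intervals as bars and the genome density of each list as dashes. BraGFP reaches 35.0 per Mb in the spans against 10.1 in the genome, while EoGFP in the spans, at 12.4 per Mb, lies near its genome value of 11.1.

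The flanks of HoxD stood apart from those of the other clusters. Both together, 1 Mb, held 3 EoGFP, 5 BraGFP, 4 EoV5 and 8 EoVP16 peaks, fewer than the 5, 6, 4 and 7 of the 96.9 kb span for EoGFP and BraGFP. The flanks of HoxA held 17, 19, 22 and 17 peaks, those of HoxB 26, 25, 37 and 37, and those of HoxC 26, 22, 26 and 33. The sequence outside coding genes in the HoxD flanks, 876 kb, held 1.14 EoGFP peaks per Mb (0.0289 to 6.36) against 7.70 in all gene-free sequence of the genome. EoV5 stood at 2.28 (0.277 to 8.25) against 10.7, BraGFP at 3.43 (0.706 to 10.0) against 7.00 and EoVP16 at 5.71 (1.85 to 13.3) against 9.26. On the 3' side, known for limb and trunk enhancers, the gene-poor 388 kb from Mtx2 to the limit of the flank held 0 EoGFP, 1 BraGFP, 0 EoV5 and 3 EoVP16 peaks. On the 5' side, which is known for digit enhancers, the 347 kb from Lnpk to the limit of the flank had 0 EoGFP, 2 BraGFP, 2 EoV5 and 0 EoVP16 peaks. Both stretches are cut off by the 500 kb limit, and the gene-poor sequence beyond it was not counted. The only HoxD flank site in all 4 lists lay at Mtx2 (chr2:74825464-74826730). Windows of 500 kb with at most 2 coding genes held a median of 2 EoGFP, 2 BraGFP, 3 EoV5 and 2 EoVP16 peaks, close to the 1, 2, 1 and 5 of the 3' flank and the 2, 3, 3 and 3 of the 5' flank.

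**Figure D5:**
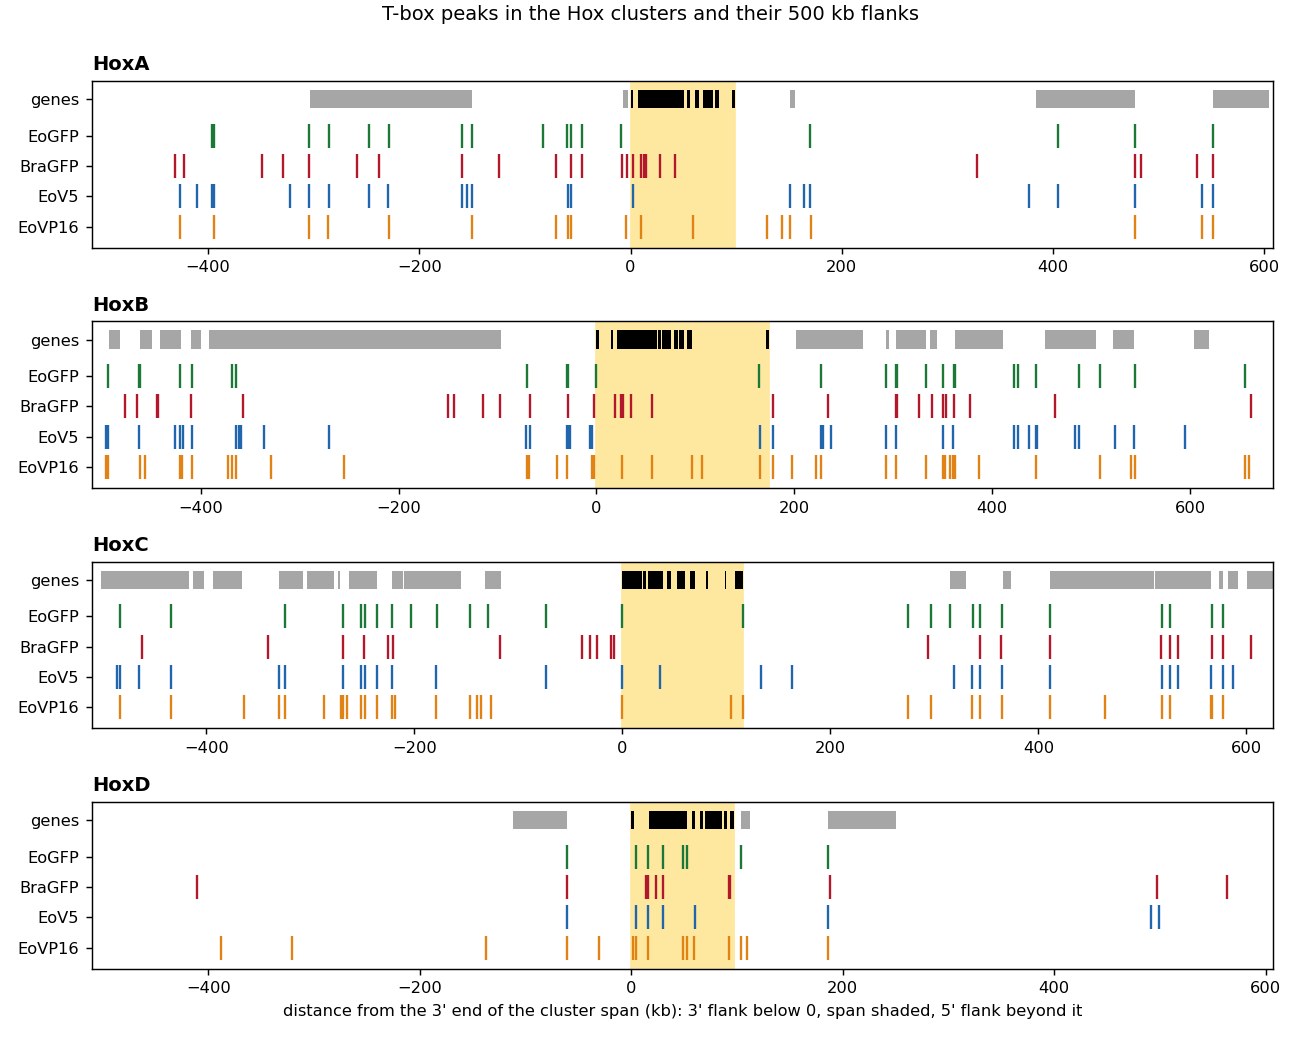
Peak midpoints of the 4 lists from 500 kb on the 3' side to 500 kb on the 5' side of each cluster, against the distance in kb from the 3' end of the span (shaded). Black boxes are listed Hox genes and grey boxes other coding genes, and the HoxD flanks hold 3 EoGFP and 5 BraGFP peaks against 26 and 25 around HoxB.

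Around HoxB, gene-free sequence held 41.8 EoGFP peaks per Mb (24.4 to 66.9) and 32 BraGFP peaks (17.0 to 54.7). Around HoxA it held 12.9 EoGFP peaks per Mb (5.91 to 24.6), against 7.70 in the genome. On the 5' side of HoxA alone the EoGFP value was 2.83, from 1 peak. The other lists there were above their genome values, with BraGFP at 8.48 against 7.00, EoV5 at 14.1 against 10.7 and EoVP16 at 11.3 against 9.26. These values rest on only 3, 5 and 4 peaks, and no interval was computed for them. In the 96.3 kb between Hoxb1 and Skap1 there were 4 EoGFP, 3 BraGFP, 7 EoV5 and 6 EoVP16 peaks. Among them was a site in all 4 lists at chr11:96396869-96398328, 28615 bp from Hoxb1, with an EoV5 pileup of 249 (219 to 282). On the 3' side of HoxA, a site in all 4 lists at chr6:52106049-52106608 lay over the long noncoding RNA gene Halr1 (EoV5 137, EoVP16 54). The 5' side held the tallest EoV5 peak around HoxA, chr6:52332400-52333186, with a pileup of 407 (368 to 449), 14011 bp from Evx1, an even-skipped homeobox gene that neighbours HoxA.

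Next to Hoxc4, the BraGFP peaks lay apart from those of the other lists. In the first 50 kb beyond Hoxc4 there were 5 BraGFP peaks, 7.73 to 39.0 kb from the gene and 275 to 513 bp wide, all below the list median of 586 bp. Over the same stretch EoGFP and EoVP16 had 1 peak each, the pair at the edge of Hoxc4 itself, and EoV5 had 0 by midpoint. The EoV5 peak of that edge site, with a pileup of 279, also reaches into the stretch, but its midpoint falls in the span. Absence from a list again means only that no peak passed its minimum. None of the 5 BraGFP peaks overlapped another list. Over the whole BraGFP list only 40.0% of peaks overlapped any other list, and in the 3' flanks 13 of 41 did (31.7%, 19.6 to 47.0). A BraGFP peak without another list was thus the more common case. Of all flank sites, 7 of 102 on the 3' side and 12 of 77 on the 5' side were in all 4 lists, or 6.86% (3.36 to 13.5) and 15.6% (9.15 to 25.3), against 8.30% of all sites in the genome. HoxC had 9 of these 19 sites, and 7 of them lay on its 5' side. The tallest EoV5 peak of all the flanks, at chr15:102699743-102700965, had a pileup of 584 (538 to 633) and lay 5812 bp from Calcoco1.

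A list of 34 genes that act with or on Hox genes was counted in the same way. EoGFP had a peak within 10 kb of 27 of them, BraGFP of 23, EoV5 of 30 and EoVP16 of 32. The shares of all coding genes were 65.2%, 53%, 62.2% and 71.1% in that order. The TALE partners, homeodomain proteins that bind DNA with Hox proteins, had peaks for 9, 8, 9 and 9 of 9 genes. Meis2 and Pknox2 had the most, 36 peaks each over the 4 lists. In the other roles the genes with most peaks were Rarb, a retinoic acid receptor (50), Kdm6b, a demethylase that removes the Polycomb mark (25), Bmi1 of Polycomb repression (11), Fgf8 of axial signalling (8), Cdx2, a caudal factor upstream of Hox genes (5), and Evx1 (4). Long genes such as Rarb collect more peaks, and these totals are not scaled to length. Cdx4 had 0 peaks in every list.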

How the data were processed

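Peaks of 4 ChIP-seq constructs were analysed, and the RNA-seq, ATAC-seq, H3K27ac, input and uninduced libraries were not used here. The peak caller MACS2 2.1.1.20160309.4, the aligner Bowtie2 2.3.4, bedtools 2.27.0 and the build mm10/GRCm38 are named in the submitters' processing notes. The deposited EoV5 and EoVP16 lists give the signal (pileup at the summit, in fragments, made by the authors' peak caller) and a ratio (fold enrichment over the caller's background, by the authors), with no header. The deposited EoGFP and BraGFP lists hold positions and names only, read as 0-based starts, and how their 2 libraries were joined is not given in the sources used here. Library depth is unknown, so nothing was scaled to it.

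Peaks on unplaced contigs (4 to 7 a list) and repeated entries (4 to 46) were left out. Peaks of different lists were joined into a site when they shared 1 bp. Genes came from the RefSeq table of GRCm38.p6, and gene starts were taken as the end facing the next higher paralogue number. The strands of all 24 promoter entries bore out this direction, but not every start position. The entry of Hoxc4 starts at 103034395 against 103018097 used here. That of Hoxd10 starts at 74691891 against 74684273, and that of Hoxb8 at 96281905 against 96279401. Counts by gene start rest on the ends of the gene spans. The HoxA span covers the listed genes only. A further gene of the rule is not analysed here, and sequence beyond Hoxa2 counts as 3' flank, with the BraGFP and EoVP16 peaks at chr6:52158045-52159968. Genes were named by a rule that accounts for every member and gives coordinates where a peak lay over a gene or within 1 kb, along with the widest or tallest peaks of each zone. Members, lists and comparisons were chosen with earlier results of these data known. No test was run, since each construct has 1 peak set. Counting was checked on simulated peaks. Python 3.11.15, pandas 2.3.3 and scipy 1.17.1 were used. Alternatives covered overlap, flank length, distance, peak height and background. The limit to genes of at most 10 kb, the allotment by gene start, the higher pileup minimum, the span without the stretch between Hoxb13 and Hoxb9 and the flanks without 1 cluster were added after seeing the data.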

Additional observations from a re-analysis of the deposited data

How the results depend on the processing

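Of 133 alternative values, 97 stayed within 1.5 times the main value or within its interval, 33 moved and 3 turned to the other side of 1. The last were ratios of 3' flank to 5' flank peaks: without HoxA, 0.897 in EoGFP and 0.971 in EoV5, and with flanks of 250 kb, 0.962 in EoVP16. With flanks of 100 kb that ratio was 2.4 in EoGFP and 5 in BraGFP. With flanks of 100 kb, the 3' flanks held 30 EoGFP and 37.5 BraGFP peaks per Mb, the 5' flanks held 7.5 BraGFP and 30 EoVP16 peaks per Mb, and 6.67% of flank sites were in all 4 lists. Measured against the pooled flanks, the BraGFP ratio of the spans was 1.97, and the interval of the EoVP16 ratio of 1.30 (0.729 to 2.15) included 1. With the taller 50% of EoV5 and EoVP16 and the wider 50% of EoGFP and BraGFP, the spans held 3 EoV5 and 2 EoVP16 peaks. The 3' flanks then held 22 EoGFP, 16 BraGFP, 24 EoV5 and 25 EoVP16 peaks, and the 5' flanks 21, 12, 18 and 19. Peaks then lay within 10 kb of 6 genes in EoGFP, 4 in EoV5 and 2 in EoVP16. That alternative removes 50% of each list by construction. Within 5 kb, 6 genes had an EoGFP peak. Within 50 kb, EoGFP had a peak near 26 genes, BraGFP near 31, EoV5 near 27 and EoVP16 near 38, and within 1 kb of the gene start 2, 2, 2 and 5. With EoV5 and EoVP16 kept at a pileup of 120 or more, an alternative chosen after seeing the data, 0% of span sites were in all 4 lists, 68.2% were of BraGFP alone and 81.8% of 1 list alone, since no EoVP16 peak of the spans reached that height. No paired analysis was possible because each construct has 1 deposited peak set and no result comes from a test. For the same reason no replicate could be left out. Depth limits every absence: a list is silent below its own minimum pileup.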
